A study of Rattus norvegicus with 4 samples.

Results

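The genes described here encode subunits of the NADPH oxidases, and were read from every probe whose RefSeq accession maps to 1 of the rat symbols Nox1, Noxa1, Nox4, Cyba, Rac1, Cybb, Ncf1, Ncf4 and Rac2. The selection gave 9 genes with 11 probes, of 16580 named genes with 21107 named probes on the array. They divide into 5 genes (6 probes) of the oxidases of vascular smooth muscle, namely Nox1, Noxa1, Nox4, Cyba and Rac1, and 4 genes (5 probes) of the oxidase of phagocytes, namely Cybb, Ncf1, Ncf4 and Rac2. All 9 genes were detected, that is, well above background, on 1 array or more, and 7 of them on all 4 arrays. Cyba and Rac1 also serve phagocytes, so the division goes by textbook use of each subunit and not by these data.

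Vessels of male rats were profiled on single-dye Agilent arrays, and each of the 4 groups had 1 array: KO rats with angiotensin II (Ang II) for 24 h, KO rats without it, WT rats with Ang II for 24 h and WT rats without it. KO rats carried a deletion of PKCbeta, the beta form of protein kinase C encoded by Prkcb, and WT rats were Wistar rats. As the design words it, Ang II was given to the vessels after isolation. It names 4 rats of each genotype, whereas each group has 1 array. The sources used here do not say whether RNA was pooled over rats, which vessel was taken, how old the rats were or whether the deletion is confined to a cell type, and total vessel RNA holds smooth muscle, endothelial, adventitial and any resident immune cells together.

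NADPH oxidases are membrane enzymes that pass electrons from NADPH across a membrane to oxygen and so make superoxide or hydrogen peroxide. A catalytic subunit (Nox1, Nox4 or Cybb, of which Cybb is the phagocyte one) binds the small membrane protein encoded by Cyba. Nox1 and Cybb further need cytosolic organiser and activator subunits and a Rac GTPase, whereas Nox4 works without them. In cultured rat vascular smooth muscle, Ang II is known to raise Nox1, and protein kinase C is known to phosphorylate Ncf1, the organiser of the phagocyte enzyme, as its assembly begins.

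Values are processed signals, which are background-subtracted intensities in scanner units, or their log2 after subtraction of the array's 75th percentile (scaled log2 signal). The ± after a signal is the scanner software's own error for that spot or probe, and the ± after a log2 ratio joins the errors of both arrays. Neither covers the spread between animals, which 1 array per group cannot show, so no single ratio carries a test. Ratios of at least 2-fold were counted as a rule of size. A probe not well above background on 1 side gives a bound, written as at least N-fold. Probes' levels were not set against each other, except that the summed levels of cell type markers below weigh bright probes most.

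Between 40.6% and 43.5% of probes were well above background on an array, no spot was saturated, and all 4 arrays lay on 1 slide with 1 scan. Position on the slide ran in the order of the groups and cannot be told apart from group. Prkcb, the deleted gene, was read by 2 probes, and the brighter had signals of 1.88 and 1.93 in KO vessels with and without Ang II, against 17.8 and 14.7 in WT vessels with and without Ang II. None of its unflagged spots was well above background on either KO array, and all were on both WT arrays. Its level in KO was at least 1.81-fold lower with Ang II and at least 1.43-fold lower without it, where the bound is set by the dimmest probes that count as well above background. The dimmer probe had signals of 1.73 and 1.90 in KO vessels with and without Ang II, against 12.2 and 8.27 in WT vessels with and without it. It was well above background only in WT vessels with Ang II, where KO was at least 1.24-fold lower, and it gave no ratio without Ang II. No source used here says where the probes lie relative to the deleted part, so the lower level goes with the labels but does not locate the deletion.

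**Figure D1:**
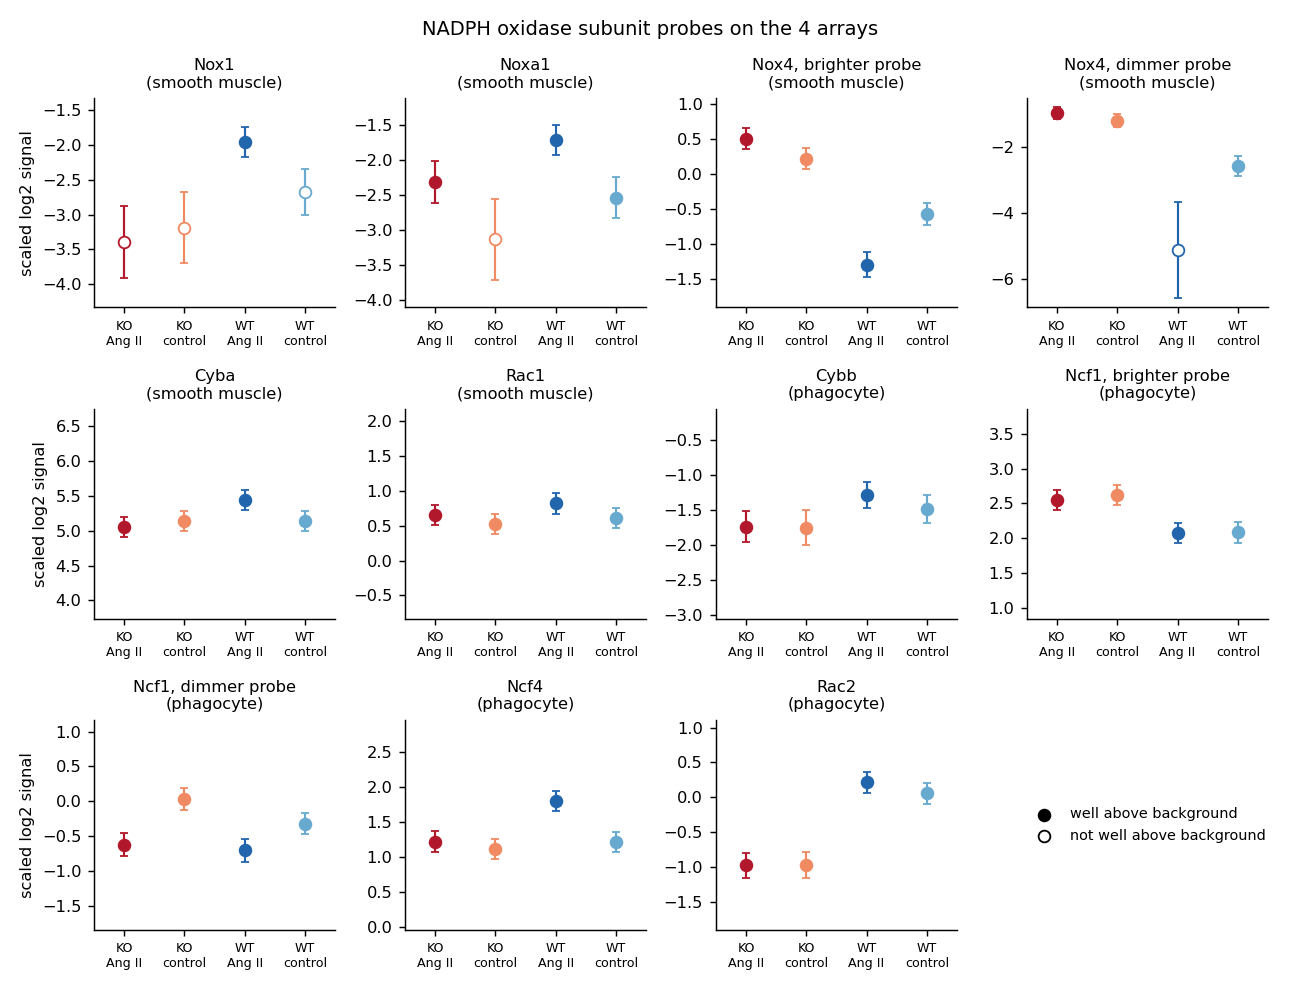
Scaled log2 signal of each of the 11 oxidase probes on the 4 arrays. Each point is 1 array, bars are the scanner software's error, open points were not well above background, and each panel has its own level on the vertical axis, spanning about 3 log2 units except for the dimmer Nox4 probe, whose axis is longer. Nox4 stands higher on both KO arrays on both of its probes, Rac2 stands lower on both KO arrays, and Nox1 was well above background only in WT vessels with Ang II.

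The catalytic subunits of the smooth muscle oxidases are Nox4 and Nox1. Nox4 was highest in KO vessels with Ang II and lowest in WT vessels with Ang II, and Nox1 was measurable only in WT vessels with Ang II, which leaves most of its ratios as bounds or without a value. The regions just before their start sites are shown because these are the catalytic genes of smooth muscle, with Noxa1, the activator that serves Nox1. The sequences are RefSeq promoter windows of the GRCr8 assembly, 250 bases ending just before the annotated start and given on the gene's strand, for Nox4 at chr1:150313639-150313888 (plus strand), Nox1 at chrX:101595521-101595770 (minus strand) and Noxa1 at chr3:28303824-28304073 (minus strand). Capitals mark matches to the letters of a searched motif.
Nox4: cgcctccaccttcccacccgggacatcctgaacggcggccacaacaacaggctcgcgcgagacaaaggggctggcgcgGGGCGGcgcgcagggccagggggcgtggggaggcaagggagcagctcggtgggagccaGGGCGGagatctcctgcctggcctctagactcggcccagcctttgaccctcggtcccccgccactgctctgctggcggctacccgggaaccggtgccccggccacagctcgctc
Nox1: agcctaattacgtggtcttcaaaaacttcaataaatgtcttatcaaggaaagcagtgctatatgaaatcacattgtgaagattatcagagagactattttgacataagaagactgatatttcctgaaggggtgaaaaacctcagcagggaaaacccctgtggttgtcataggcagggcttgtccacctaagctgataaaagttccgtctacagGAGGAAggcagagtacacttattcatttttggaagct
Noxa1: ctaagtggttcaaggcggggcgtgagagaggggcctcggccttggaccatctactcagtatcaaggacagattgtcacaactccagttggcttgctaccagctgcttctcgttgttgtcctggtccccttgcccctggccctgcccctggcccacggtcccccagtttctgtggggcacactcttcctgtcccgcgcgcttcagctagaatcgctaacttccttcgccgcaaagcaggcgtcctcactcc

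Of the 9 members, 6 had a promoter in the RefSeq table (Nox1, Noxa1, Nox4, Cyba, Cybb and Ncf1). Each was searched on both strands for TGANTCA (AP-1), GAGGAA (the core of PU.1 and other ETS factors), TTCNNNGAA (STAT), GGGCGG (Sp1) and TATAAA (bound by TBP), none of which overlapped another in these windows. The Nox4 window held GGGCGG at 2 places, 172 to 167 and 114 to 109 bases before the start, and had a GC content of 72.8%. The Nox1 window had a GC content of 40% and held GAGGAA 37 to 32 bases before the start. The Noxa1 window, with 60.4% GC, held none of the 5 motifs. Over 33469 RefSeq rat promoters of the same length, GGGCGG was present in 30.5% and GAGGAA in 23.3%, so both are common letters and a match is a description only.

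Nox4, the constitutively active oxidase that needs only the Cyba partner, was read by 2 probes. The brighter probe had signals of 74.0 ± 7.65 in KO vessels with Ang II and 55.1 ± 5.84 in KO vessels without it, against 25.3 ± 3.15 in WT vessels with Ang II and 39.3 ± 4.29 in WT vessels without it. Both KO arrays thus lay above both WT arrays. Under Ang II the KO level was 3.5-fold that of WT (log2 ratio 1.81 ± 0.23), which put Nox4 at the 99.9th percentile of 9570 compared genes. Normexp background correction, which adds an offset to every signal, gave 0.71 here, short of 2-fold, and the mean of both probes gave 2.97. That mean takes in the dimmer probe, which was not well above background in WT vessels with Ang II. Without Ang II the KO level was 1.74-fold that of WT (log2 ratio 0.80 ± 0.22). In the unscaled and scaled values alike the order of the arrays was KO with Ang II, KO without, WT without and WT with Ang II, and of the 3 gaps between neighbours the one between the KO arrays (0.29 ± 0.21) was the smallest. Fewer cells of a type and less RNA per cell cannot be told apart in RNA of whole vessels, here or for any gene below.

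The dimmer Nox4 probe had the same order of arrays. Its signals were 26.4 ± 3.13 in KO vessels with Ang II and 20.4 ± 2.74 in KO vessels without it, against 1.80 ± 1.81 in WT vessels with Ang II, a value too dim to count as well above background, and 9.90 ± 2.08 in WT vessels without it. KO vessels had a level at least 3.99-fold higher than WT under Ang II, and the KO level was 2.56-fold higher without it (log2 ratio 1.36 ± 0.36). The 2 probes therefore agree on the direction of both genotype ratios and differ in their size.

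Ang II itself went with opposite differences of Nox4 in the genotypes. The log2 ratio of Ang II over control was 0.29 ± 0.21 in KO vessels and -0.72 ± 0.24 in WT vessels on the brighter probe. On the dimmer probe the log2 ratio was 0.23 ± 0.26 in KO vessels, and in WT vessels the level with Ang II was at least 1.33-fold lower. The KO response minus the WT response was 1.01 on the log2 scale, or 2.01-fold, just past the 2-fold rule, and was 0.96, just short of it, after quantile normalization. It was 0.44 after normexp correction, which ends the call, and 1.89 as the mean of both probes, which takes in the dim WT value with Ang II. The difference was not tested, since each response rests on 1 array a side.

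Nox1, the inducible smooth muscle oxidase, had signals of 4.95 ± 1.76 in KO vessels with Ang II and 5.20 ± 1.85 in KO vessels without it, against 16.0 ± 2.35 in WT vessels with Ang II and 9.18 ± 2.06 in WT vessels without it. Only the WT array with Ang II was well above background, and the other 3 arrays are bounds. In WT vessels the level with Ang II was at least 1.64-fold higher than without it (log2 0.72), and under Ang II the KO level was at least 1.63-fold lower than WT (log2 -0.71). Nox1 entered the comparisons only through the group in which it was high, so these bounds had to point this way. The KO arrays give no ratio of Ang II over control, and the arrays without Ang II give no ratio of KO over WT.

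Noxa1, which encodes the activator that joins Nox1, had signals of 10.5 ± 2.20 in KO vessels with Ang II and 5.37 ± 2.16 in KO vessels without it, against 19.0 ± 2.76 in WT vessels with Ang II and 10.1 ± 2.04 in WT vessels without it. It was well above background on all arrays other than KO without Ang II, and was highest in WT vessels with Ang II, as Nox1 was. The level with Ang II was at least 1.14-fold higher than without it in KO vessels and 1.77-fold higher in WT vessels (log2 ratio 0.82 ± 0.36). The bound does not show a smaller response in KO. With the dim KO value taken as read, the log2 ratio in KO was 0.82 ± 0.65. Under Ang II the KO level was 1.51-fold lower than WT (log2 ratio -0.60 ± 0.37). Without Ang II the KO value was too dim to give a bound.

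The shared partners of the smooth muscle enzymes varied little. Cyba, the membrane partner of Nox1, Nox4 and Cybb, had scaled log2 signals of 5.05 in KO vessels with Ang II and 5.14 in KO vessels without it, against 5.43 in WT vessels with Ang II and 5.13 in WT vessels without it. Its probe was printed as 10 spots, whose SD on an array lay between 0.033 and 0.057, and the WT array with Ang II stood above the other 3 with no overlap of spots. The log2 ratio of KO over WT was -0.39 ± 0.20 with Ang II and 0.00056 ± 0.20 without it, and that of Ang II over control was -0.09 ± 0.20 in KO and 0.30 ± 0.20 in WT. Rac1, the GTPase that activates Nox1, had scaled log2 signals of 0.65 and 0.52 in KO vessels with and without Ang II, against 0.82 and 0.61 in WT vessels with and without it. All 4 of its ratios were within 0.21 of 0 on the log2 scale, and no gap between neighbouring arrays exceeded its error.

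**Figure D2:**
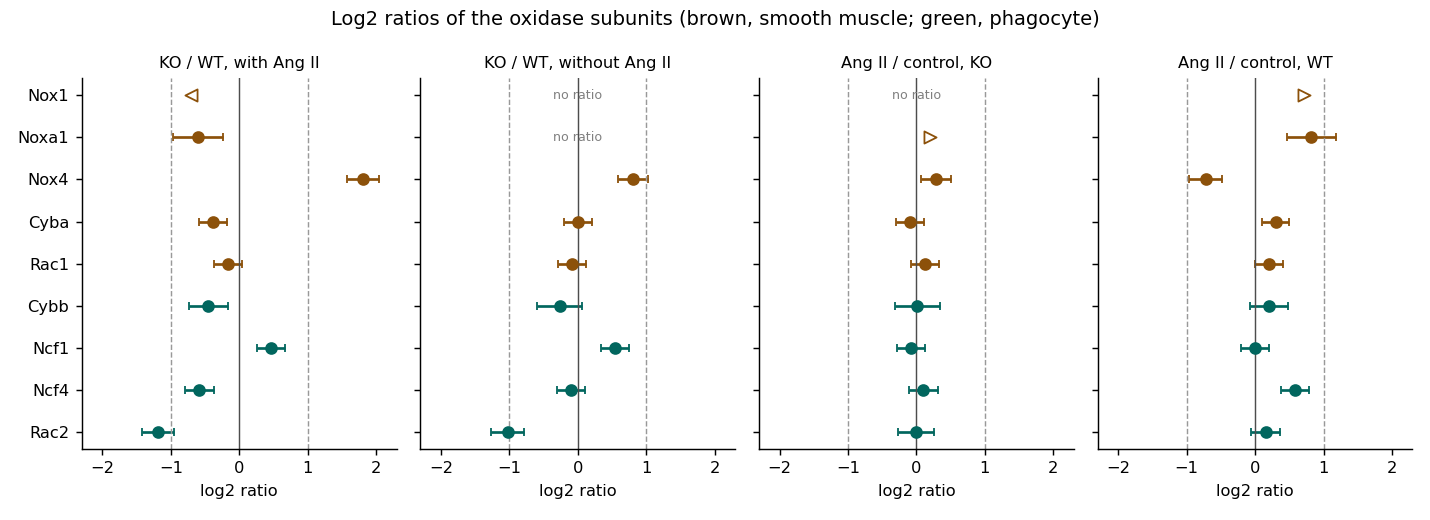
Log2 ratios of the 9 oxidase genes in 4 comparisons, with the smooth muscle genes in brown and the phagocyte genes in green. Points are measured ratios with the scanner error of both arrays, open triangles are bounds that point away from 0, dashed lines mark 2-fold, and genes without a ratio are marked. Past the 2-fold lines are Nox4 in KO over WT with Ang II, at 1.81, and Rac2 in KO over WT, at -1.19 with Ang II and -1.03 without it. Each gene is shown by its brightest probe. The dimmer Nox4 probe, not shown, was past 2-fold in KO over WT without Ang II as well (log2 ratio 1.36).

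Among the phagocyte subunits, Rac2 was lower in KO with and without Ang II, while the catalytic subunit Cybb differed by less than 2-fold. Cybb had signals of 15.6 ± 2.39 in KO vessels with Ang II and 14.0 ± 2.42 in KO vessels without it, against 25.5 ± 3.25 in WT vessels with Ang II and 20.9 ± 2.96 in WT vessels without it. Both KO arrays lay below both WT arrays, with log2 ratios of KO over WT of -0.45 ± 0.29 with Ang II and -0.27 ± 0.32 without it. The log2 ratio of Ang II over control was 0.02 ± 0.33 in KO and 0.20 ± 0.27 in WT, each within its error. The Cybb promoter window is shown because this gene is the textbook phagocyte oxidase, at chrX:16065066-16065315 (minus strand) of GRCr8, with TGAATCA 166 to 160 bases and the opposite-strand form of GAGGAA 14 to 9 bases before the start in capitals. AP-1 letters were present in 6.34% of the 33469 rat promoters.
Cybb: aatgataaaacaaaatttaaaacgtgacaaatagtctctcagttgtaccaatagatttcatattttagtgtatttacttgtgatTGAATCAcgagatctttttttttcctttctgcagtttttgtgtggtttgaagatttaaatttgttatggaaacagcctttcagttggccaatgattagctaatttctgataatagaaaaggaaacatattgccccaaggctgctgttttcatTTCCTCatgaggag

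Rac2, the Rac GTPase of blood cells that serves the phagocyte oxidase, was read by a probe of 10 spots. Its mean signal was 26.5 ± 3.28 in KO vessels with Ang II and 24.2 ± 3.15 in KO vessels without it, against 72.4 ± 7.52 in WT vessels with Ang II and 61.3 ± 6.45 in WT vessels without it. The unflagged spots ran from 20.4 to 32.0 and from 18.7 to 31.0 on the KO arrays with and without Ang II, against 63.3 to 86.2 and 54.7 to 74.5 on the WT arrays with and without Ang II. No KO spot reached the lowest WT spot, though spots of 1 array are repeat readings of 1 RNA. The KO level was 2.28-fold lower with Ang II (log2 ratio -1.19 ± 0.23) and 2.04-fold lower without it (log2 ratio -1.03 ± 0.24). Normexp correction gave -0.43 with Ang II and -0.37 without it, which ends both calls. Ang II over control gave log2 ratios of -0.0098 ± 0.26 in KO and 0.15 ± 0.21 in WT, each within its error.

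**Figure D3:**
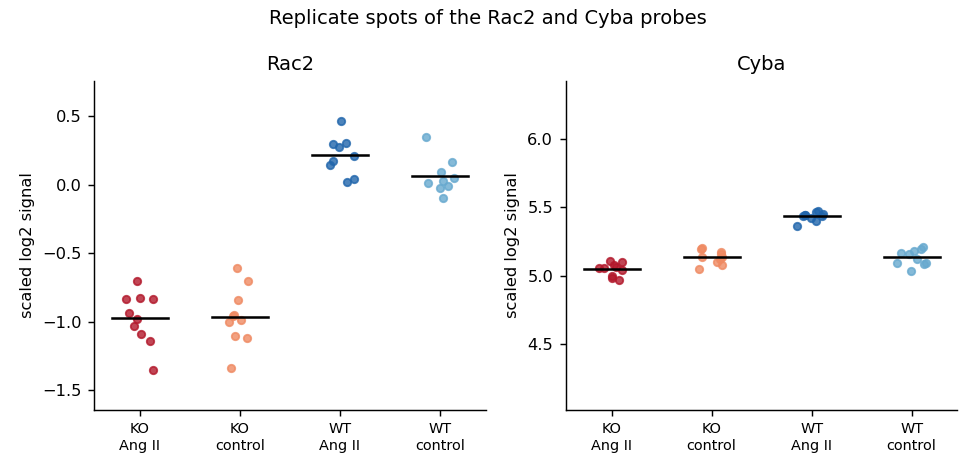
Scaled log2 signal of every unflagged replicate spot of the Rac2 and Cyba probes on the 4 arrays, with the array mean as a bar and 2.4 log2 units on both vertical axes. Rac2 spots on the KO arrays all lie below those on the WT arrays, whereas Cyba spots overlap among all arrays other than WT with Ang II.

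Ncf1, the organiser that protein kinase C phosphorylates, ran the other way on its brighter probe. Scaled log2 signals were 2.55 in KO vessels with Ang II and 2.63 in KO vessels without it, against 2.08 in WT vessels with Ang II and 2.09 in WT vessels without it. The KO arrays lay above the WT arrays, by log2 ratios of 0.47 ± 0.20 with Ang II and 0.54 ± 0.20 without it, and Ang II over control was -0.08 in KO and -0.0081 in WT. The dimmer Ncf1 probe gave scaled log2 signals of -0.62 and 0.03 in KO vessels with and without Ang II, against -0.70 and -0.32 in WT vessels with and without it. Its KO over WT ratios were 0.08 ± 0.23 and 0.35 ± 0.22 with and without Ang II, and its Ang II over control ratios were -0.66 ± 0.23 in KO and -0.38 ± 0.23 in WT. The probes of Ncf1 thus share the sign of the genotype ratios but disagree on the size of both the genotype and the Ang II ratios.

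Ncf4, an adaptor of the phagocyte enzyme, had signals of 121.2 ± 12.3 in KO vessels with Ang II and 102.5 ± 10.4 in KO vessels without it, against 217.2 ± 21.8 in WT vessels with Ang II and 136.4 ± 13.7 in WT vessels without it. The WT array with Ang II stood apart and the other 3 lay within 0.10 of each other on the scaled log2 scale. The log2 ratio of Ang II over control was 0.10 ± 0.21 in KO and 0.58 ± 0.21 in WT, a 1.5-fold higher level in WT. The KO over WT ratio was -0.58 ± 0.21 with Ang II and -0.10 ± 0.21 without it.

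Counted by the 2-fold rule, the genotype comparison under Ang II had 1 member higher in KO of 9 (Nox4), where 1.84% of 9570 genes were, and 1 lower (Rac2), where 4.42% were. Without Ang II it had 0 higher of 7, where 2.4% of 9447 genes were, and 1 lower (Rac2), where 3.32% were. The count of 0 rests on the brighter Nox4 probe, since the dimmer one was 2.56-fold higher in KO without Ang II. Rac2 was the only member at least 2-fold lower in both, as were 1.13% of 8588 genes detected on all arrays. For Ang II over control, no member counted as 2-fold higher or lower, among 8 compared in KO (background 0.184% higher and 0.78% lower of 9233 genes) and 9 in WT (1.43% higher and 0.888% lower of 9793 genes). Some values were only bounds, so whether they pass 2-fold is not known. These were Nox1 with Ang II in WT (at least 1.64-fold higher) and in KO over WT with Ang II (at least 1.63-fold lower). With Ang II, Noxa1 in KO was at least 1.14-fold higher, and the dimmer Nox4 probe in WT at least 1.33-fold lower. For the KO response minus the WT response, Nox4 was past 2-fold upward of 7 members, where 1.27% of 8588 genes were, and 0 were past it downward, where 2.85% were. With so few members, these counts describe the named genes and say nothing of the family as a whole.

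Over the 7 members detected on all 4 arrays, which leaves out Nox1 and Noxa1, the median log2 ratio of KO over WT was -0.39 with Ang II and -0.09 without it, beside -0.02 and 0.03 over all 8588 such genes. With Ang II, 5 of these 7 members lay below 0 in KO over WT, as 51.4% of the genes did, and Nox4 and Ncf1 lay above. The median for Ang II over control was 0.02 in KO and 0.20 in WT, beside -0.0060 and 0.04 over the genes. In WT vessels, 5 of the 7 lay above 0, as 55.6% of the genes did, with Nox4 and Ncf1 below.

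**Figure D4:**
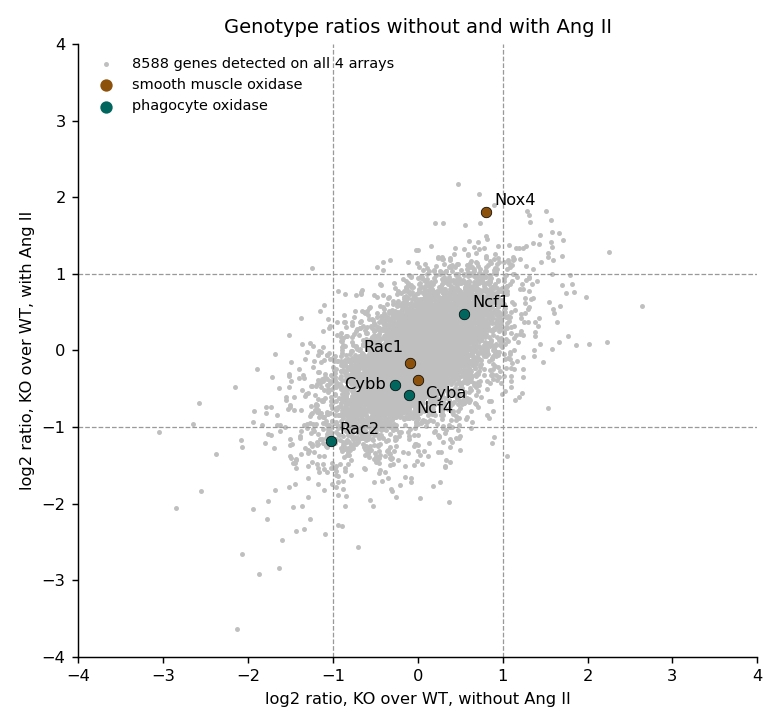
Log2 ratio of KO over WT without Ang II (horizontal axis) and with Ang II (vertical axis), for the 8588 genes detected on all 4 arrays in grey, with the 7 oxidase genes among them in brown (smooth muscle) and green (phagocyte) and dashed lines at 2-fold. The axes share no array. Nox4 stands at 0.80 and 1.81 near the upper edge of the cloud, Rac2 at -1.03 and -1.19 near its lower left, and the other 5 lie within it.

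A model of genotype plus Ang II over all 4 arrays gave the only test that this design allows. It was fitted with limma to 9379 genes that 2 or more arrays detected, with 1 residual degree of freedom, so any true difference of responses is counted as error. Values not well above background entered the fit as read. These included Noxa1 in KO vessels without Ang II, and Agtr1a, a gene described below, on both KO arrays. At a Benjamini-Hochberg adjusted p of 0.05, limma called 0 of 8 members and 0% of all genes for genotype, although 2464 genes (26.3%) had an unadjusted p under 0.05, among them 4 members. Rac2 had a fitted KO minus WT log2 difference of -1.11 ± 0.16 (SE, limma adjusted p = 0.0952) and Nox4 one of 1.30 ± 0.29 (SE, limma adjusted p = 0.115). Noxa1 had -0.60 ± 0.15 (SE, limma adjusted p = 0.127) and Ncf1 0.50 ± 0.15 (SE, limma adjusted p = 0.152), and the other 4 tested members had adjusted p from 0.24 to 0.618. For Ang II, limma called 0 of 8 members and 0% of all genes, with 361 genes (3.85%) at an unadjusted p under 0.05 and every member at an adjusted p of 0.99984. Nox1 was too dim to be fitted. With a prior on the spread that follows the mean level and is fitted robustly, limma called Rac2, Nox4 and Ncf1 for genotype (adjusted p = 0.0154, 0.0205 and 0.0486), along with 1315 genes in all, so the calls depend on that choice.

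Macrophage and leukocyte markers were lower in KO, as Rac2 was. Of 15 macrophage and monocyte markers 12 were detected, and their summed level (signal over the array's 75th percentile) was 42.2 in KO vessels with Ang II and 35.1 in KO vessels without it, against 72.4 in WT vessels with Ang II and 64.8 in WT vessels without it. Bright probes weigh most in such a sum. In WT vessels the sum was higher with Ang II than without it, though 7 of the 12 markers were lower (median log2 ratio -0.12). With Ang II, 10 of the 11 compared were lower in KO, 3 of them at least 2-fold (median log2 ratio -0.31), and without it all 10 compared were lower, 4 of them at least 2-fold (median -0.85). The 4 pan-leukocyte markers were lower in KO with and without Ang II (median log2 ratios -0.60 and -0.80), beside -1.19 and -1.03 for Rac2. Ptprc, which encodes CD45, was the lowest of the 4 in both, at -1.22 and -1.09. The macrophage marker Adgre1 had log2 ratios of -2.04 and -1.47, whereas Cd68 had -0.19 and -0.26. Mrc1, Marco and Spi1 were not well above background on any array, nor was any of the 6 neutrophil markers with a probe. Lymphocyte and red cell markers did not follow. The 2 detected T cell markers had a median log2 ratio of 0.15 with Ang II and 0.07 without it (Cd3d, 0.39 and 0.25). The red cell markers had medians of -0.14 (3 compared) and 0.34 (2 compared). The -0.14 is the bound of Hbb, detected only in WT vessels with Ang II, so it had to point this way. The measured red cell ratios with and without Ang II were -0.22 and 0.12 for Hba-a1, and -0.11 and 0.55 for Hba-a2. The part of these cells in the Rac2 values was not tested. Ncf1, also a phagocyte subunit, was not lower in KO on either probe.

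Most smooth muscle markers were higher in KO, as Nox4 was, and most fibroblast markers were lower. The summed level of 8 smooth muscle markers was 194.5 and 174.8 in KO vessels with and without Ang II, against 124.7 and 139.6 in WT vessels with and without it. Of the 8, 7 were higher in KO with Ang II (median log2 ratio 0.57) and 7 without it (median 0.58), beside 1.81 and 0.80 for Nox4. The exceptions were Lmod1 with Ang II (log2 ratio -0.26) and Des without it (log2 ratio -1.11, past 2-fold lower). The 8 fibroblast markers summed to 413.3 and 464.5 in KO vessels with and without Ang II, against 749.1 and 722.7 in WT vessels with and without it. Of these 8, 7 were lower in KO with Ang II (median log2 ratio -0.87). Without it 5 were lower and 3 higher (median -0.51). Fbln1 was higher in KO in both, with log2 ratios of 0.51 and 0.88. The 6 detected endothelial markers had a median log2 ratio of 0.0095 with Ang II, with 3 higher and 3 lower in KO, and of -0.35 without it, with 5 lower. Of 3 white adipocyte markers compared, 3 were lower in KO with Ang II (median log2 ratio -0.77) and 2 without it (median -1.25). Fabp4, among these, was detected only on the WT arrays, so its bounds had to point this way, and both medians are those bounds. Adipoq had a measured log2 ratio of -1.22 with Ang II and a bound of -2.16 without it. Pnpla2 had -0.16 with Ang II and 0.33 without it. The part of the cell makeup in the Nox4 values was not tested.

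**Figure D5:**
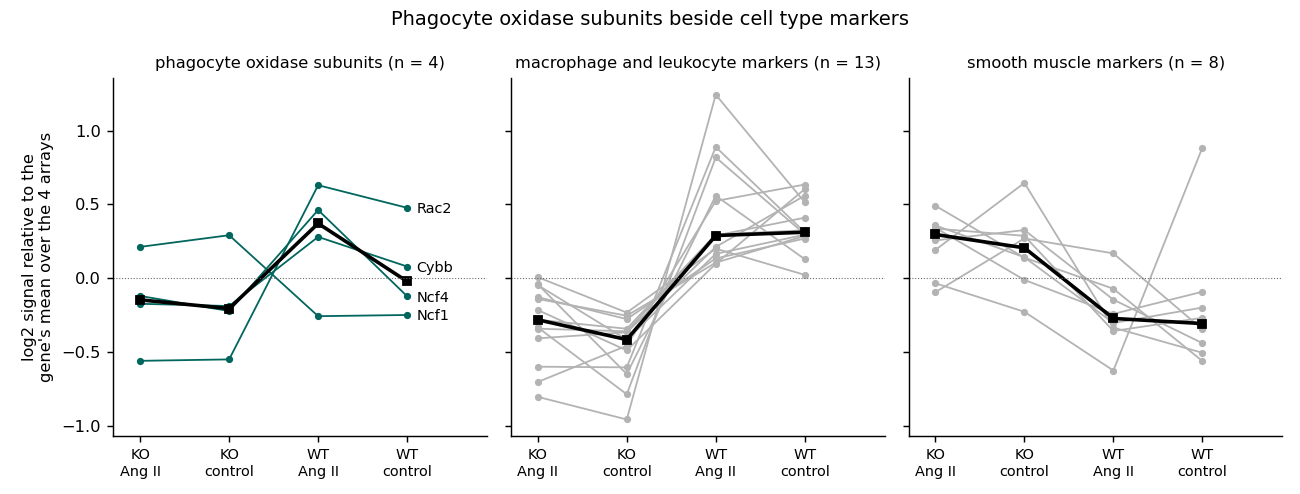
Log2 signal after centring every gene on its own mean, for the 4 phagocyte oxidase subunits (left), the 13 macrophage and leukocyte markers detected on all arrays (middle) and the 8 smooth muscle markers (right), with thin lines for genes and the black line for their median. The lines join arrays only to follow a gene. The median of the macrophage and leukocyte markers lies lower on both KO arrays, as Rac2 and Cybb do and Ncf1 does not, and that of the smooth muscle markers lies higher there.

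A wider list of 30 oxidase genes and regulators was read beside the members, and 23 of them had a named probe and 13 were detected on 1 array or more. Noxo1, the organiser that joins Nox1, had no named probe and was not analysed here, and Nox3, Duox1 and Duox2, the remaining catalytic genes, were not well above background on any array. By the brightest probe of each, 3 of the 12 compared were at least 2-fold lower in KO with Ang II, where 4.42% of all genes were, and 0 higher, where 1.84% were. Without Ang II, 2 of 13 were lower, where 3.32% of all genes were, and 0 higher, where 2.4% were. The count of 0 higher depends on a bound and on the probe. Sh3pxd2a, also on the list, was at least 1.99-fold higher in KO without Ang II, so whether it passes 2-fold is not known. Src, a kinase that acts upstream of the oxidases and is named here after its values were seen, had a second probe, detected on all 4 arrays, at log2 ratios of 1.35 with Ang II and 1.05 without it, against -0.09 and -0.11 on the probe counted. P4hb, a protein disulfide isomerase known to bind and assist oxidase subunits in smooth muscle, was 2.49-fold lower in KO with Ang II and 2.43-fold lower without it. Agtr1a, the main receptor for Ang II in rat vessels, had signals of 6.25 and 6.33 in KO vessels with and without Ang II, not well above background, against 27.4 and 25.9 in WT vessels with and without it. Its level in KO was at least 2.78-fold lower with Ang II and at least 2.51-fold lower without it. Agtr1a entered the comparisons only through the WT arrays, so these bounds had to point this way. It is among the genes counted as lower with and without Ang II.

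Pla2g4a, the cytosolic phospholipase that frees arachidonic acid, had signals of 31.8 in KO vessels with Ang II and 50.5 in KO vessels without it, against 104.2 in WT vessels with Ang II and 48.1 in WT vessels without it. The WT array with Ang II was the high one. Its log2 ratio of Ang II over control was -0.81 in KO and 1.03 in WT, and with Ang II it was 2.74-fold lower in KO. Of 13 regulators compared it alone counted as past 2-fold upward with Ang II in WT, as 1.43% of all genes did. Sh3pxd2a gave only a bound there, at least 1.16-fold higher. In KO, 0 of 11 were 2-fold higher or lower, where 0.184% and 0.78% of all genes were. None of P4hb, Agtr1a and Pla2g4a passed the limma test for genotype (adjusted p = 0.0933, 0.0835 and 0.504).

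The genes whose profile over the 4 arrays was most like that of a lead subunit were found by the Euclidean distance between centred log2 profiles, among 8587 genes. Nearest to Nox4 were Rasal2 (distance 0.12), Srrm2 (0.26), Jun (0.27) and Mark4 (0.29), where 5 genes lay within 0.3 and the median distance was 1.45. Rasal2 had log2 ratios of KO over WT of 1.90 with Ang II and 0.90 without it, and of Ang II over control of 0.21 in KO and -0.80 in WT. Nearest to Cybb were Fggy (0.02), Man2a1 (0.023), Cdk17 (0.03) and Mettl7a (0.031), but 1559 genes lay within 0.3 of Cybb, so its profile was a common one. With 4 arrays, likeness is a description of these arrays.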

How the data were processed

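RNA was labelled with Cy3 for 1-colour arrays, per the labels' protocols. The intensity values, deposited as scanner output, are processed signals after background subtraction and spatial detrending within each array, per the file headers; spot errors and median signals are intensities too, and the flags (other) are 0 or 1. Feature Extraction is 10.7.1.1 per the file headers and 12.1.1.1 per the submitters' processing notes, which leaves the version unsettled. The authors' deposited table of log2 values equals log2 processed signal plus a constant per array (-0.09, 0.05, -0.34 and -0.26 in the order KO Ang II, KO control, WT Ang II, WT control) within 0.01 for 98.0% to 98.1% of probes. Its direction is thus known, its medians are 2.11, 2.27, 2.22 and 2.29, and the reason for the constants stays unknown.

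Outlier spots (301 to 372 per array) were left out, the spots of a probe were averaged, and the array's 75th percentile (52.1, 47.3, 62.4 and 58.7) was subtracted on the log2 scale. A probe counted as well above background where more than 50% of its unflagged spots did. A gene took its brightest probe among those detected on 1 array or more. For a bound, a dim value was replaced by that of the dimmest detected probe of the same array unless it was itself higher. Having 1 array a group limits the precision, and whether samples came from separate animals is not given. Accessions were matched without versions to RefSeq genes of GRCr8, for names and promoters only, since the array design names another build. The limma (3.58.1, R 4.3.3) fit was tested on simulated data. Normexp, an alternative, used the median signal, since no mean signal column was present. All oxidase probes, Prkcb, regulators past 2-fold and the catalytic or organiser genes were named by rule, and the members and lists were chosen with earlier results of these data known.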

Additional observations from a re-analysis of the deposited data

Results flagged for a closer look

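Nox4 had Ang II responses of opposite sign in the genotypes, 0.29 in KO vessels and -0.72 in WT vessels on the log2 scale, and the KO response minus the WT response was 1.01. The single array of each side moved the opposite way, and the difference was not tested. The dimmer Nox4 probe gave 0.23 in KO vessels and a level at least 1.33-fold lower in WT vessels.

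Pla2g4a also had responses of opposite sign, -0.81 in KO vessels and 1.03 in WT vessels, and the KO response minus the WT response was -1.83 on the log2 scale. This difference was not tested either.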

How the results depend on the processing

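Of 395 recomputed member ratios under 10 settings, 377 stayed within the scanner error of the ratio as reported, 18 moved and 12 changed sign, none of the last past 2-fold; the flips were of Cyba, Cybb, Ncf1 and Rac2 ratios, with KO over WT without Ang II for Cyba negative under every rescaling. Normexp correction, which adds an offset of 50 and so shrinks ratios of dim probes, left 0 members past 2-fold in KO over WT without Ang II, 0 with Ang II and 0 in the difference of responses; Nox4 was then 0.71 and Rac2 -0.43 for KO over WT with Ang II. Quantile normalization left 0 members in the difference of responses (Nox4 0.96). Taking the mean of a gene's probes gave 1 member for Ang II in WT (Nox4, -1.63) and 2 for KO over WT without Ang II (Nox4, 1.08, and Rac2). The -1.63 takes in the dimmer Nox4 probe, which was not well above background in WT vessels with Ang II. Without a filter on dim probes, or with any spot above background sufficing (an alternative chosen after seeing the data), Nox1 at -1.44 was also past 2-fold in KO over WT with Ang II. A trended, robust prior gave 3 members for genotype and 581 genes higher and 734 lower in KO, against 0; the deposited table gave 8 lower; the cause of these differences was not tested.

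Counts over all genes past 2-fold (higher and lower) changed with normexp and with the filter. For Ang II in KO they were 17 and 72, against 0 and 4 with normexp, 393 and 792 without a filter, 90 and 150 with any spot, and 10 and 40 for genes detected on all arrays. For Ang II in WT they were 140 and 87, against 29 and 8, 719 and 794, 247 and 177, and 95 and 30. For KO over WT with Ang II they were 176 and 423, against 18 and 137 with normexp, 652 and 1129 without a filter and 220 and 641 with any spot. For KO over WT without Ang II they were 227 and 314, against 25 and 89, 891 and 945, and 281 and 530. For the difference of responses they were 109 and 245, against 20 and 50 with normexp and 1013 and 1465 without a filter. Rescaling moved the median of all genes by less than 0.1. No paired analysis was possible because each group has 1 array. Leaving out an array leaves no residual degree of freedom, so it was not run. Signal over background limits Nox1, Noxa1 and the dimmer Nox4 probe.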
